A study of Mus musculus with 11 samples.

Results

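Spp1, Gpnmb, Itgax, Cd9, Cd63, Lgals1, Lgals3, Cst7, Fabp5 and Acp5 belong to the programme that microglia switch on around amyloid plaques, after demyelination and during early postnatal development. They were chosen by name, with earlier results of these data known. Counts of them beside the share over all genes are thus a description and not a test. All 10 were among the 19555 genes tested. Each was found through the RefSeq accession that the array carries for its probes. Their products fall into secreted proteins (Spp1, Lgals1, Lgals3), proteins of the cell surface and of vesicle membranes (Gpnmb, Itgax, Cd9, Cd63), and proteins of lysosomal proteolysis, phosphatase activity and lipid handling (Cst7, Acp5, Fabp5).

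Microglia are the resident macrophages of the brain parenchyma. In the adult brain most of them are in a homeostatic state marked by P2ry12 and Tmem119, and this state is maintained in part by TGF-β signalling. In the disease-associated state, which depends on the lipid-sensing receptor TREM2 and its adaptor TYROBP, homeostatic genes fall while genes of lipid uptake, lysosomes and matrix contact rise. A related state is found in the developing white matter of newborn mice, where amoeboid microglia engulf cells and debris.

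All 11 samples were microglia of C57BL/6N mice, measured on single-colour Agilent arrays. A_FACS (2 arrays) was sorted from female adults aged 12 to 24 weeks, and NB_FACS (3 arrays) from newborns of both sexes at postnatal days 1 to 3. Microglia for NB_Control (3 arrays) were shaken off mixed glial flasks that pooled several newborn brains and were fed L-929 conditioned medium. By the study's protocol these flasks were kept for weeks before harvest. The cells then spent 1 day in DMEM/F12 with serum and no added cytokine. NB_Stim (3 arrays) was prepared in the same way, with 100 ng/mL each of human CX3CL1, IL-34 and TGF-β1 during that day. Sorted cells were taken from a CX3CR1-high, CD45-intermediate gate, and the labels give no genotype beyond the strain. Age and sex cannot be told apart between A_FACS and the newborn groups. Neither can the weeks in the flask, the last day of culture and the method of isolation between NB_Control and NB_FACS.

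The arrays had between 66.8% and 80.4% of their probes well above background, and their number limits the precision. Slide 1 held 8 arrays, both adult ones among them, and slide 2 held the third replicates of the newborn groups. Replicates 1 and 2 of the cultured groups lay close together, with a median absolute log2 difference over all genes of 0.119 in NB_Control and 0.128 in NB_Stim. The study counts its replicates as independent biological ones, but the labels do not say whether these were separate cultures, and the p-values then measure a spread that may be technical in part. Of 9 microglia markers, 8 were tested and all 8 were above background in every group. Their summed linear intensity ran from 272944 to 296544 on the adult arrays, from 164086 to 188206 in NB_FACS, from 37737 to 63643 in NB_Control and from 139205 to 150425 in NB_Stim. Fewer cells of a type and less RNA per cell cannot be told apart in such bulk samples. Levels below are log2 quantile-normalised intensities, differences are differences of group means on that scale with the SE of the limma fit, and a gene was called where limma's adjusted p was under 0.05.

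Probes of different sequence have different brightness, so that levels were compared between arrays for 1 gene and not between genes. The probes matter most for Fabp5, Cd63 and Acp5, which had more than 1. The 3 probes of Fabp5 come from 3 RefSeq transcripts and are shown whole, since their mean is the value given for this gene. They read 5′ to 3′ as follows.
Fabp5 MMXS11372: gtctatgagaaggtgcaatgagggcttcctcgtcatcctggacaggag
Fabp5 MMXS12160: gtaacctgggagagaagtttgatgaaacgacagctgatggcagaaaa
Fabp5 MMXS24201: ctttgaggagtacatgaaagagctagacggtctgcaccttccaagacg
The second probes of Cd63 and Acp5 were above background on none of the 11 arrays and were left out. The first 30 bases are shown for the probe used and the probe left out, since only the former carries the result.
Cd63 MMXS37273, used: ctcctgctgtctggtgaagagtattcgaag
Cd63 MMXS52579, left out: gttgggagacttctaggatgggaagctagg
Acp5 MMXS41713, used: agctttcttgggaacgggctttcctttcag
Acp5 MMXS01538, left out: ctctgagcctttatgcaaagcacggaacga
The Cd63 probe that was left out shares a run of 34 bases with the Cd63 promoter window of RefSeq, starting at base 17 downstream of the annotated start, near the annotated 5′ end. The used Cd63 probe shares no run above 6 bases with this window. Whether these probes also bind transcripts of related genes or pseudogenes was not tested.

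Promoters are shown as a description of sequence, and no link between their motifs and the levels was tested. RefSeq windows (GRCm38.p6) existed for 8 of the 10 genes, in 11 windows of 250 bases before to 50 after an annotated start, and none was at hand for Lgals1 or Fabp5. Printed here are 250 bases before to 30 after the start for Gpnmb and Cst7, which differed widely between the adult arrays (Gpnmb as a lower bound), for Itgax, which shares a motif with them, and for Spp1. In the first 3 windows capitals mark the AP-1 motif TGANTCA, and in the Spp1 window they mark the ETS core AGGAAG, which reads as its complement where it lies on the other strand.
Gpnmb, chr6:49036268-49036547, + strand: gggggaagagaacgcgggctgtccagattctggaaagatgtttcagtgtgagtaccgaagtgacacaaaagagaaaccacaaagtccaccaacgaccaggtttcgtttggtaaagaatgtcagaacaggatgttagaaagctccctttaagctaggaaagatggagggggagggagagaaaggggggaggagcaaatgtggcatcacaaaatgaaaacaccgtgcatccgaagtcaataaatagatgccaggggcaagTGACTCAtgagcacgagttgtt
Cst7, chr2:150570165-150570444, + strand: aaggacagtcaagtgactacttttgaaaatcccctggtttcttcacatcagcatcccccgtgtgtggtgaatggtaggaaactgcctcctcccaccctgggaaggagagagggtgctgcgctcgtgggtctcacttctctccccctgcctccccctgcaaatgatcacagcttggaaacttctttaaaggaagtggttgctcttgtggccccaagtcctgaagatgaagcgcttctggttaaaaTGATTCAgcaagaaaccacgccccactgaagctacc
Itgax, chr7:128129300-128129579, + strand: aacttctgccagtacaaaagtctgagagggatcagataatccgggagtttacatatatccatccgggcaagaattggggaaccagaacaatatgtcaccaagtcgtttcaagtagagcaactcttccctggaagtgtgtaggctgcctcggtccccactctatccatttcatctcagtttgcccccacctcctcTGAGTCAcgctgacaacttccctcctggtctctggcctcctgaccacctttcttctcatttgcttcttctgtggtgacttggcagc
Spp1, chr5:104434861-104435140, + strand: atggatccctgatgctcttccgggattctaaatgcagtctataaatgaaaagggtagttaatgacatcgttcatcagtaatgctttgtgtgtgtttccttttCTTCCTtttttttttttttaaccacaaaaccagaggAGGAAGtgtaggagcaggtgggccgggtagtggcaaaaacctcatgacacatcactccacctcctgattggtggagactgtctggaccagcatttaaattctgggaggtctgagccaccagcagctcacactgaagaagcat
The motif TGANTCA began at base 9 downstream of the Gpnmb start, at base -6 for Cst7 and at base -56 for Itgax. On either strand, 3 of the 11 windows of the 8 genes and 7.81% of all 32851 promoter windows hold it. AGGAAG, the core of sites bound by PU.1 and its relatives, was in windows of 4 of the 8 genes (Spp1, Cd9, Cd63 and Cst7). By window, it was in 5 of their 11 windows and in 35.4% of all windows. The SMAD motif CAGACA was in 2 of the 11 windows, of Spp1 and Lgals3, and in 21% of all windows. Of the MiT/TFE motifs, CATGTG was in 2 of the 11 windows, of Cd9 and Acp5, and in 14.2% of all windows. CACGTG was in no window of the 8 genes and in 7.15% of all. None of the AGGAAG matches in Spp1, Cd9, Cd63 and Cst7 overlapped another searched motif. A match describes the letters of the window and not a bound site.

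**Figure D1:**
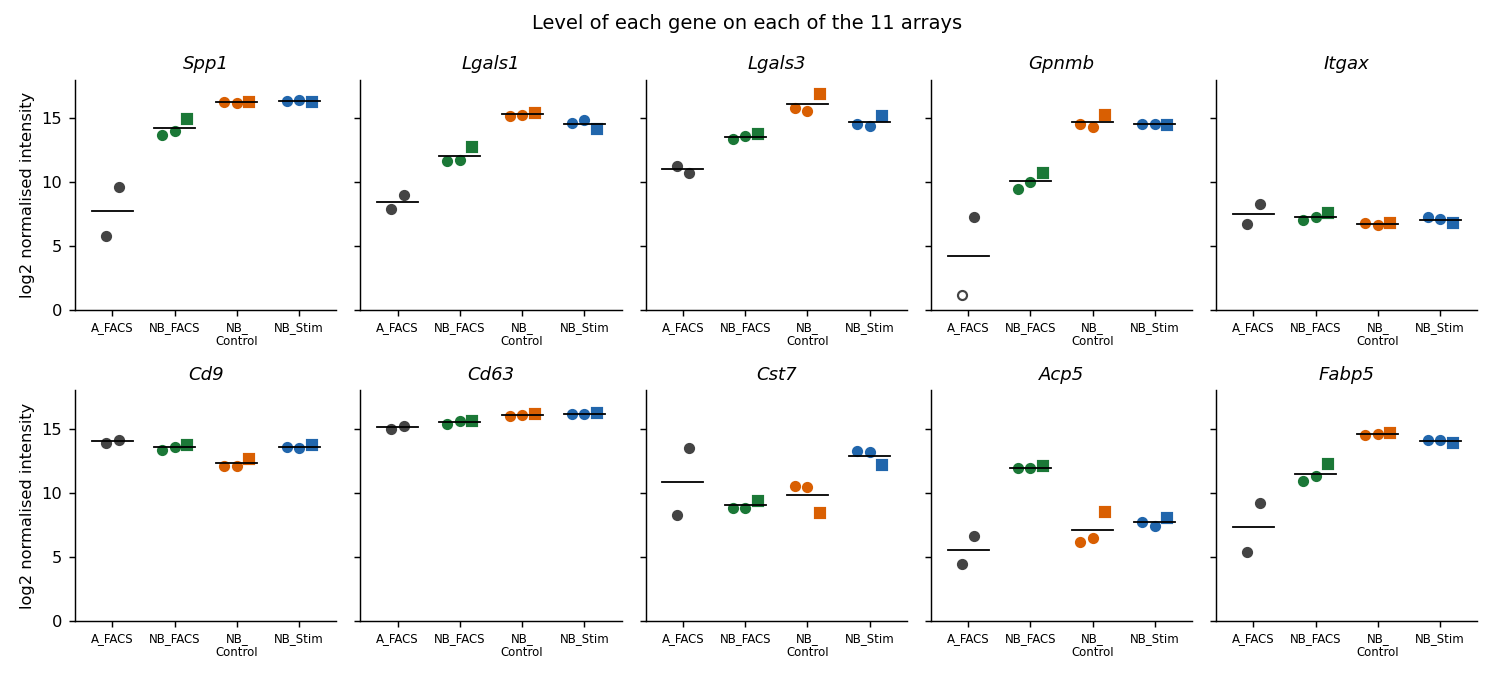
Level of each of the 10 genes (vertical axis, log2 normalised intensity) on each of the 11 arrays, by group. Circles are arrays of slide 1, squares are arrays of slide 2, lines are group means, and the open circle is a value not well above background. The 2 adult arrays lie far apart for Gpnmb, Cst7, Spp1 and Fabp5, whereas the newborn arrays of a group mostly lie together.

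The secreted matrix protein osteopontin, encoded by Spp1, binds integrins and CD44. The 2 adult arrays gave 5.81 and 9.64, and the NB_FACS arrays 13.71, 14.01 and 14.90. NB_Control gave 16.26, 16.15 and 16.26, and NB_Stim 16.35, 16.39 and 16.23. The adult arrays were below all newborn arrays, sorted newborn cells came next, and both cultured groups were highest with ranges that overlapped each other. The adult difference from NB_FACS was -6.48 ± 0.84 (limma, adjusted p = 0.00065). The difference of 2.02 ± 0.75 between NB_Control and NB_FACS was not called (limma, adjusted p = 0.0723), although the arrays did not overlap, as for 44.2% of all genes. The spread of the adult arrays entered this SE, and without either one of them the same difference had an adjusted p of 0.000604 in limma. In every such fit the adult array that was kept is assumed to vary like the other groups.

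Galectin-1, from Lgals1, is a secreted lectin that binds β-galactosides. It stood at 7.85 and 9.02 on the adult arrays, at 11.61, 11.72 and 12.74 in NB_FACS, at 15.19, 15.26 and 15.43 in NB_Control and at 14.62, 14.86 and 14.15 in NB_Stim. No 2 groups overlapped, and the order was A_FACS, NB_FACS, NB_Stim, NB_Control. NB_Control lay 3.28 ± 0.36 above NB_FACS (limma, adjusted p = 0.000118) and A_FACS differed from it by -3.58, while the -0.76 ± 0.36 between NB_Stim and NB_Control was not called (limma, adjusted p = 0.372).

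Lgals3 encodes galectin-3, a lectin that is recruited to damaged lysosomes and is also a ligand of TREM2. Its levels were 11.29 and 10.70 on the adult arrays, 13.33, 13.58 and 13.76 in NB_FACS, 15.75, 15.56 and 16.91 in NB_Control and 14.54, 14.35 and 15.16 in NB_Stim. It was the only one of the 10 genes that was higher on adult array 1 than on adult array 2. The groups did not overlap in any comparison. NB_Control was 2.52 ± 0.36 above NB_FACS (limma, adjusted p = 0.000527), and NB_Stim was 1.13 ± 0.36 above NB_FACS (limma, adjusted p = 0.0367). The latter was not called without any 1 of the arrays NB_FACS 1, NB_FACS 2, NB_Stim 1 and NB_Stim 3 (limma, adjusted p = 0.0689 to 0.112). The difference between NB_Stim and NB_Control was -1.39 ± 0.36 and not called (limma, adjusted p = 0.0736). With the replicate number as a block, Lgals3 was lower in NB_Stim than in NB_Control (limma, adjusted p = 0.0134). That block takes same-numbered newborn arrays as pairs, which the labels do not state. With the slide as a block the adjusted p in limma was 0.00746. On slide 1 this difference was -1.21 and on slide 2 it was -1.75.

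The transmembrane glycoprotein encoded by Gpnmb sits in lysosomes and at the cell surface of macrophages that handle lipid. Adult array 1 gave 1.13, which was not well above background, and adult array 2 gave 7.26. NB_FACS gave 9.48, 9.98 and 10.73, NB_Control 14.51, 14.27 and 15.21, and NB_Stim 14.53, 14.56 and 14.50. Cultured cells of either kind were thus far above sorted newborn cells, and the 2 cultured groups overlapped. The difference between NB_Control and NB_FACS was 4.60 ± 1.18 (limma, adjusted p = 0.0145), a fold of 24.3. It was the largest rise of the 10 genes in this comparison, and without NB_FACS replicate 1 it was 4.31 and not called (limma, adjusted p = 0.0516). Within slide 1 it was 4.66 and not called (limma, adjusted p = 0.0682), and on slide 2 it was 4.49. Nor was it called with cultured replicates 1 and 2 averaged (limma, adjusted p = 0.0566) or by the methods' Tukey test (adjusted p = 0.177). A_FACS differed from NB_FACS by -5.87 (limma, adjusted p = 0.0109), or lay 4.60 below it with adult array 1 set to 3.66, the lowest signal well above background on that array. Adult array 2 alone was 2.81 below the NB_FACS mean.

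Itgax encodes CD11c, the αX subunit of a leukocyte integrin that pairs with β2. It gave 6.75 and 8.30 on the adult arrays, 6.99, 7.24 and 7.56 in NB_FACS, 6.83, 6.63 and 6.79 in NB_Control and 7.24, 7.13 and 6.77 in NB_Stim. None of the 6 comparisons was called for Itgax, and the difference furthest from 0 was the 0.77 ± 0.38 between A_FACS and NB_Control (limma, adjusted p = 0.131). Without adult array 1 the A_FACS level was above all 3 newborn groups, by 1.04 from NB_FACS, a value that rests on adult array 2 alone. Without adult array 2 the same difference was -0.52.

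Cd9 and Cd63 encode tetraspanins, which organise other membrane proteins, Cd9 at the plasma membrane and Cd63 in late endosomes, lysosomes and exosomes. Cd9 stood at 13.90 and 14.15 on the adult arrays and at 13.36, 13.59 and 13.76 in NB_FACS. It fell to 12.12, 12.09 and 12.67 in NB_Control and was at 13.54, 13.51 and 13.71 in NB_Stim. NB_Control lay below all arrays of the other 3 groups, and NB_Stim overlapped NB_FACS. Cd9 fell by 1.27 with shaking and culture (limma, adjusted p = 0.000614) and was 1.29 ± 0.18 higher in NB_Stim than in NB_Control (limma, adjusted p = 0.0047). The latter was not called with cultured replicates 1 and 2 averaged (1.23, limma, adjusted p = 0.0942) or by the methods' Tukey test (adjusted p = 0.0673). The difference between NB_Stim and NB_FACS was 0.021 ± 0.18 (limma, adjusted p = 0.945).

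The used probe of Cd63 was well above background on every array. It gave 14.96 and 15.25 on the adult arrays, 15.39, 15.59 and 15.60 in NB_FACS, 15.99, 16.08 and 16.15 in NB_Control and 16.18, 16.16 and 16.21 in NB_Stim. No 2 groups overlapped, yet the differences were small. NB_Control was 0.55 ± 0.13 above NB_FACS (limma, adjusted p = 0.00854), a fold of 1.46. With the dim second probe averaged in, this difference was 0.58 and was not called (limma, adjusted p = 0.073). The difference of -0.42 ± 0.14 between A_FACS and NB_FACS was not called (limma, adjusted p = 0.0584), but it was called with the replicate number as a block (limma, adjusted p = 0.0386). That block ties adult arrays to newborn arrays of the same number, for which no pairing is known.

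Cystatin F, from Cst7, inhibits lysosomal cysteine proteases. Adult array 1 gave 8.27 and adult array 2 gave 13.47. NB_FACS gave 8.83, 8.82 and 9.37, NB_Control 10.54, 10.45 and 8.44, and NB_Stim 13.27, 13.22 and 12.21. Adult array 1 lay below all sorted newborn arrays, whereas adult array 2 was above every other array. From the NB_FACS mean they differed by -0.74 and by 4.46. NB_Stim was 3.89 ± 1.09 above NB_FACS (limma, adjusted p = 0.0221), and without any 1 of 4 newborn arrays (NB_FACS 1 or 2, NB_Stim 1 or 2) its adjusted p in limma was between 0.0626 and 0.0669. Between NB_Stim and NB_Control the difference was 3.09 ± 1.09, with no overlap of the arrays but no call (limma, adjusted p = 0.2). It was called without either adult array (limma, adjusted p = 0.0196). NB_Control replicate 3, on slide 2, lay below the other 2 arrays of its group, and NB_Control was 1.67 above NB_FACS on slide 1 and 0.93 below it on slide 2.

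Acp5 encodes tartrate-resistant acid phosphatase, the enzyme that marks osteoclasts. It was 4.42 and 6.62 on the adult arrays and 11.90, 11.95 and 12.06 in NB_FACS. NB_Control gave 6.17, 6.47 and 8.52, and NB_Stim 7.73, 7.44 and 8.03. NB_FACS was above all arrays of the other 3 groups, and NB_Control overlapped both A_FACS and NB_Stim. Acp5 fell by 4.91 with shaking and culture (limma, adjusted p = 0.000332), a fold of 30.1, and by 6.45 from NB_FACS to A_FACS (limma, adjusted p = 0.000285). Its direction with culture was thus opposite to that of Gpnmb, Lgals1, Lgals3 and Fabp5. The difference of -2.22 between A_FACS and NB_Stim was called (limma, adjusted p = 0.0335), but without adult array 1 it was -1.12 (limma, adjusted p = 0.323), and without any 1 of the 3 NB_Stim arrays its adjusted p in limma was between 0.056 and 0.0713.

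Fabp5 encodes a cytosolic fatty acid-binding protein. The mean of its 3 probes was 5.39 and 9.18 on the adult arrays, 10.95, 11.31 and 12.22 in NB_FACS, 14.55, 14.59 and 14.64 in NB_Control and 14.11, 14.09 and 13.87 in NB_Stim. No 2 groups overlapped, and NB_Control was highest. NB_Control was 3.1 ± 0.75 above NB_FACS (limma, adjusted p = 0.0112), a call that was lost with cultured replicates 1 and 2 averaged (limma, adjusted p = 0.0524) and by the methods' Tukey test (adjusted p = 0.147). A_FACS differed from NB_FACS by -4.21 (limma, adjusted p = 0.00614). Taken alone, the 3 probes gave 2.59, 3.09 and 3.6 for NB_Control against NB_FACS and -3.99, -4.18 and -4.47 for A_FACS against NB_FACS, in the order printed above. The call of Fabp5 in NB_Stim against NB_FACS was less stable, since 2.53 ± 0.75 passed (limma, adjusted p = 0.0285) and the first probe alone, at 2.11, did not (limma, adjusted p = 0.0676). Without any 1 of the NB_FACS arrays 1 and 2 or the 3 NB_Stim arrays it was not called either (limma, adjusted p = 0.0502 to 0.0942).

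**Figure D2:**
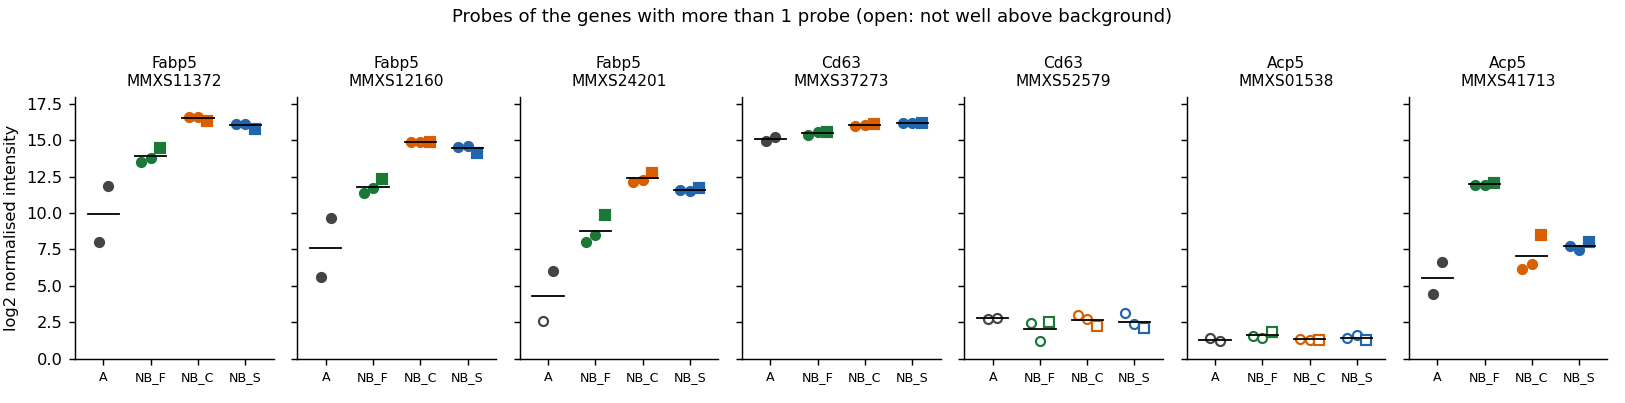
Log2 normalised intensity (vertical axis) of every probe of Fabp5, Cd63 and Acp5 on the arrays of A_FACS (A), NB_FACS (NB_F), NB_Control (NB_C) and NB_Stim (NB_S), with squares for slide 2, lines for group means and open symbols for values not well above background. The 3 Fabp5 probes share the order of the groups, and 1 probe each of Cd63 and Acp5 was not well above background on any array; heights of different probes are not comparable.

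Counted over the 10 genes, shaking and culture went with 5 genes called higher in NB_Control than in NB_FACS (Lgals1, Lgals3, Gpnmb, Cd63, Fabp5) and 2 called lower (Cd9, Acp5). Over all genes 15.8% were called higher and 13.9% lower. The median difference of the 10 genes was 1.41, against 0.086 over all genes tested. Of the 10 genes, 9 had the same sign on slide 1 and on slide 2, the exception being Cst7. Microglia markers were lower in 7 of 8 in the same comparison, and markers of other cells moved as well. Of 9 fibroblast markers tested, 6 were higher and 0 lower in NB_Control than in NB_FACS, with a summed intensity of 42993 to 50651 against 2327 to 2459. The 8 border macrophage markers had 3 higher and 3 lower, with sums of 45725 to 89618 against 12486 to 15116. Erythroid markers ran the other way, at 190 to 212 against 148839 to 204999, and of 10 proliferation genes 9 were lower. The part of these cells in the result was not tested.

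**Figure D3:**
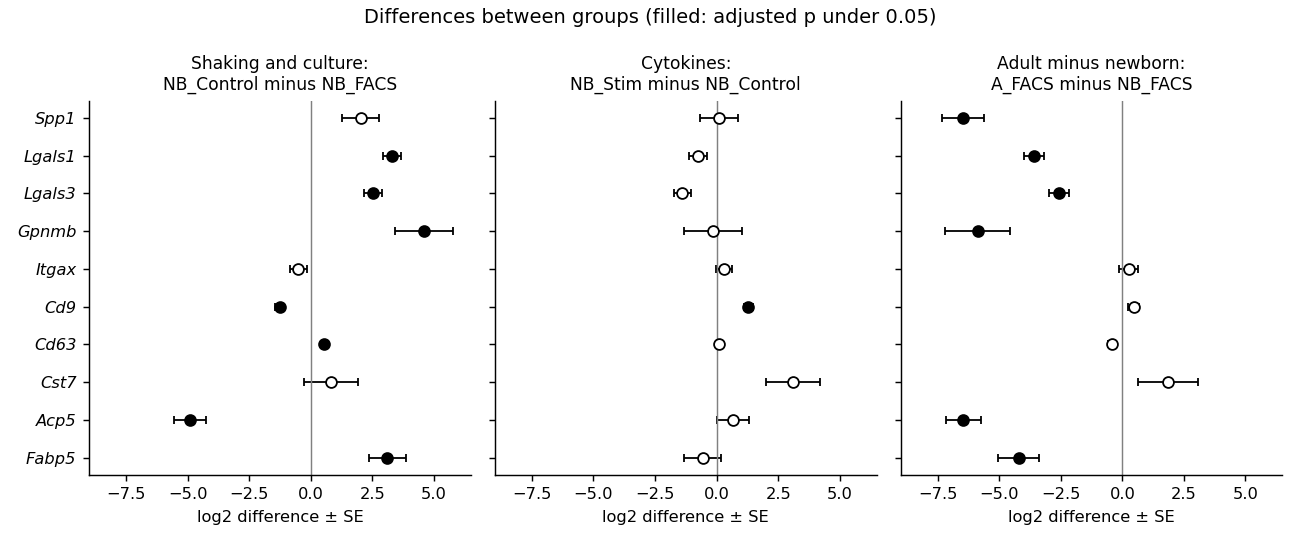
Log2 difference ± SE of the limma fit (horizontal axis) for each of the 10 genes in 3 comparisons, with filled points for adjusted p under 0.05. Lgals1, Lgals3, Gpnmb and Fabp5 are filled to the right with culture and to the left in adults. Spp1 and Cd63 lie on the same sides, Spp1 open with culture and Cd63 open in adults. Acp5 lies to the left in both, and Cd9 alone is filled for the cytokines.

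With the cytokines 1 of the 10 genes was called, Cd9, which was higher in NB_Stim than in NB_Control. Over all genes 1.4% were called higher and 2% lower. The median difference of the 10 genes was 0.10, against -0.00084 over all genes. Spp1 and Gpnmb, which were high in NB_Control, differed by 0.10 ± 0.75 and -0.14 ± 1.18 in NB_Stim. These SEs also hold the spread of the adult arrays, and a p that misses the threshold does not show that the levels were alike. A fit without the adults that took same-numbered newborn arrays as pairs was added after the data were seen. The labels do not state such pairs. This fit called 3 of the 10, with Cst7 (limma, adjusted p = 0.0184) higher and Lgals3 (limma, adjusted p = 0.0166) lower beside Cd9. That fit called 1170 of all genes, or 5.98%, against 666 in the fit of all groups. Microglia markers had 4 of 8 higher and 0 lower in NB_Stim than in NB_Control. Border macrophage markers had 0 of 8 higher and 1 lower, Mrc1 at -5.24. At an unadjusted p under 0.05 in limma 5 of them were lower, as were 8.84% of all genes. Their summed intensity was 20474 to 34101 against 45725 to 89618, and their part in the result was not tested. Against NB_FACS, with which it was not matched in culture, NB_Stim had 6 of the 10 genes called higher and 1, Acp5, called lower. The share over all genes was 16% higher and 15.1% lower. In that comparison 8 of 9 fibroblast markers were higher (summed intensity 25777 to 55476 against 2327 to 2459), 2 border macrophage markers were higher and 4 lower, and 4 of 6 erythroid markers and 9 of 10 proliferation genes were lower. The part of these cells was not tested. Both comparisons share the NB_Stim arrays, as the culture comparison shares NB_Control and NB_FACS.

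In adult against newborn sorted cells, 0 of the 10 genes were called higher and 6 were called lower (Spp1, Lgals1, Lgals3, Gpnmb, Acp5, Fabp5), where over all genes 9.76% were called higher and 12.9% lower. The median difference of the 10 genes was -3.07, against -0.0089 over all genes. For Cst7 and Itgax the adult arrays lay on opposite sides of the NB_FACS mean. Adult array 1 differed from it by -0.74 and -0.52, and adult array 2 by 4.46 and 1.04. At an unadjusted p under 0.05 limma called no gene among the 10 higher, and the methods' Tukey test called 0 higher and 4 lower, without Gpnmb (adjusted p = 0.145) and Fabp5 (adjusted p = 0.0985). Over all genes 16.0% were higher at that unadjusted p, and Tukey's test called 10.3% in either direction. Gpnmb and Fabp5 were not called in a fit of these 2 groups alone (limma, adjusted p = 0.0723 and 0.0557). With the replicate number or the slide as a block, Cd9 was called higher, at 0.57 (limma, adjusted p = 0.0209 and 0.0155). The replicate block ties adult arrays to newborn arrays of the same number, for which no pairing is known (correlations -0.069 to 0.168). Proliferation genes were lower in 9 of 10, border macrophage markers in 6 of 8, and erythroid markers in 4 of 6 in the adult cells. Microglia markers were higher in 5 of 8. Fibroblast markers had 2 of 9 higher and 5 lower, with sums of 6055 to 8711 against 2327 to 2459. The part of all these in the result was not tested. Against NB_Control, A_FACS had 1 of the 10 higher, Cd9, and 6 lower, where over all genes 17.6% were higher and 23.2% lower. Against NB_Stim it had 0 higher and 7 lower, where over all genes 17.5% were higher and 22.8% lower. At an unadjusted p under 0.05 in limma it also had 0 higher, against 21.3% of all genes. Against either cultured group, A_FACS had 8 of 9 fibroblast markers lower and 4 of 6 erythroid markers higher. Microglia markers were higher in 8 of 8 against NB_Control and in 6 of 8 against NB_Stim. Border macrophage markers had 0 higher and 5 lower against NB_Control, and 1 higher and 3 lower against NB_Stim. The part of these cells was not tested. The 3 adult comparisons share the 2 adult arrays.

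The adult arrays differed from each other far more for these genes than for most others. Array 2 was higher than array 1 for 9 of the 10, and 7 of the 10 had a gap above 1 on the log2 scale, whereas 51.1% of all genes were higher on array 2 and 4.33% had a gap above 1. The median of array 2 minus array 1 was 1.88 over the 10 genes and 0.0095 over all genes. Spp1 was 14.2-fold, Acp5 4.60-fold, Itgax 2.94-fold and Lgals1 2.25-fold higher on array 2. Cst7 was 36.8-fold higher there, and only 0.0153% of genes had a wider gap in either direction. Fabp5, of which 1 of 3 probes was not well above background on array 1, was at least 10.9-fold higher with that probe set to the lowest signal well above background there. Gpnmb was at least 12.1-fold higher on array 2, counted from the lowest signal well above background on array 1, and its measured gap of 6.13 was the widest of all genes, while at that bound it ranks 32 by size. Cd9 and Cd63 differed by 0.25 and 0.29. With 1 array on each side these gaps have no replicate check and no test. The 10 genes were also chosen with earlier results of these data known.

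**Figure D4:**
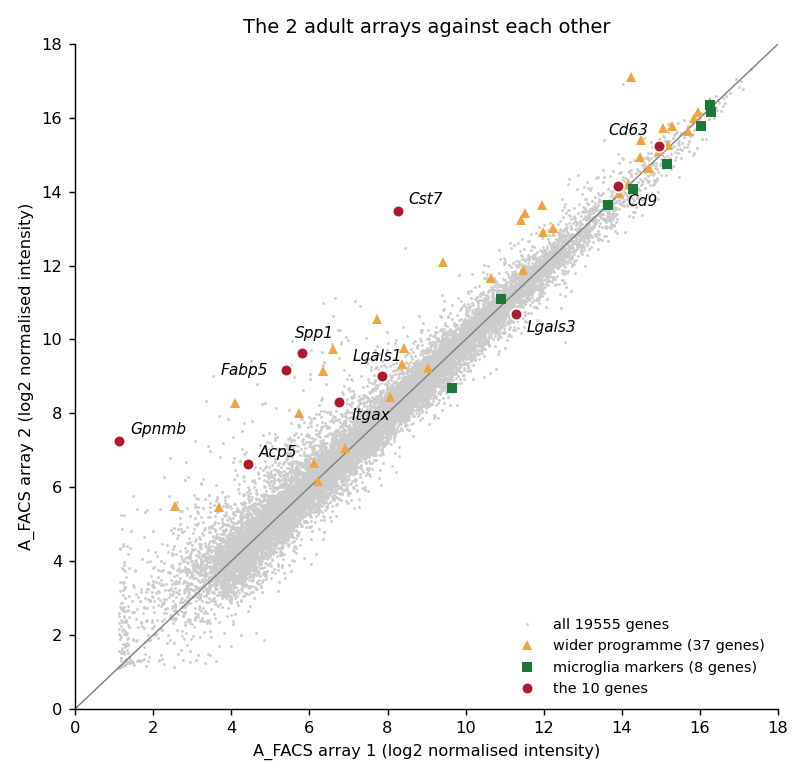
Level of every gene on adult array 1 (horizontal axis) against adult array 2 (vertical axis), both in log2 normalised intensity, with the line of equal levels. Most of the 10 genes and many of the 37 genes of the wider programme lie above the line, while the 8 microglia markers lie near it.

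The wider disease-associated programme, a list of 42 genes of which 37 were tested, had 34 genes higher on adult array 2 and 13 with a gap above 1, with a median of 0.66. Wide gaps, picked after the values were seen, were those of the growth factor gene Igf1 (4.10 and 8.27, with 3 of its 6 probes not well above background on array 1) and of Ch25h (6.60 and 9.75), which makes 25-hydroxycholesterol. Apoe, the main lipid carrier of the brain, gave 14.24 and 17.11, and lipoprotein lipase, Lpl, gave 9.43 and 12.08. Trem2 itself gave 14.45 and 14.94. Of the 8 microglia markers, 3 were higher on array 2 and none had a gap above 1. Markers of other cells also differed between the adult arrays. Array 2 was higher for 7 of 8 border macrophage markers, whose median gap was 1.83 and whose summed intensity was 1275 on array 1 and 1672 on array 2. It was higher for 5 of 6 erythroid markers (median 1.55, sums 8566 and 25363) and for all 10 proliferation genes (median 1.19, sums 2069 and 4285). Gaps above 1 were seen for 5, 4 and 6 genes of these lists. Medians were lower for 9 fibroblast markers (0.97, with 7 higher and sums of 6055 and 8711), for 5 endothelial markers (0.86, with 4 higher and sums of 5903 and 11769) and for 8 neutrophil and monocyte markers (0.64, with 6 higher and sums of 1988 and 4444). The neutrophil gene S100a8 gave 3.53, not well above background, and 9.0. Their part in the gap was not tested.

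A smaller shift of this kind was seen among the sorted newborn arrays. All 10 genes were highest on NB_FACS replicate 3, the array on slide 2, as were 46.4% of all genes. S100a8 was at 6.29 and 5.59 on replicates 1 and 2 and at 11.82 on replicate 3, where the summed intensity of the neutrophil and monocyte markers was 6034 against 709 and 756. Slide and cell content cannot be told apart for this array. In NB_Control 7 of the 10 genes were highest on replicate 3, where 41.6% of all genes were, and in NB_Stim 4 of the 10, where 43.6% of all genes were.

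The wider programme also had genes that moved between groups. Over all genes the shares were 15.8% higher and 13.9% lower with culture, 1.4% and 2% with the cytokines and 9.76% and 12.9% in adults. Several counts below lie near these shares. In NB_Control against NB_FACS, 12 of the programme's 37 genes were higher and 4 lower, with a median of 0.43. The 3 largest rises were those of Dkk2 (4.0, limma adjusted p = 4.35e-05), which encodes a Wnt antagonist, Lyz2 (3.40), the macrophage lysozyme, and Ch25h (2.40). The largest falls were those of the chemokines Ccl3 (-3.27) and Ccl4 (-2.56) and of Csf1 (-2.77). With the cytokines 3 were higher, Ch25h (2.80), Ctse (2.00) and Psat1 (1.84), and 3 lower, Ccl6 (-3.92), Ccl3 (-1.98) and Lilrb4a (-1.34). In adults against newborns 1 was higher, Ccl3 (0.86), and 6 were lower, led by Gpx3 (-6.79), Igf1 (-3.63) and Plin2 (-2.83), which coats lipid droplets. Tyrobp rose by 0.72 with culture (limma, adjusted p = 0.0333), and the 0.43 of Trem2 was not called (limma, adjusted p = 0.165).

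Binding partners and family relatives of the 10 genes made a list of 23, of which 21 were tested. The shares over all genes are those given for the wider programme. With culture 7 were higher and 3 lower. Fabp4, the adipocyte and macrophage relative of Fabp5, rose from 4.47, 4.77 and 4.93 in NB_FACS to 9.20, 9.27 and 9.35 in NB_Control, a difference of 4.55 (limma, adjusted p = 6.87e-07), and in NB_Stim it differed from NB_Control by -2.07. The galectin-3-binding protein gene Lgals3bp rose by 1.46, and Itgb2, whose β2 chain pairs with CD11c, by 1.29, while the tetraspanins Cd81 and Cd82 fell by 0.91 and 0.61 and the integrin gene Itgb5 by 0.52. With the cytokines 3 were higher and 1 lower. The rises were Itgb5 (1.80), which encodes a vitronectin receptor subunit, Itgal (1.1) and Ctsh (1.09), and the fall was that of Fabp4. In adults against newborns 7 were higher, led by Itgb2 (1.58), Ctsh (1.33) and Itgb5 (1.18), and 5 lower, led by Fabp4 (-1.60), Cstb (-1.08) and Fabp3 (-0.88). Itgb2 and Itgax were thus both measured in adults, and Itgb2 passed the test in that comparison whereas the 0.26 of Itgax did not.

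The MiT/TFE factors regulate lysosomal genes and, with the RANK pathway, osteoclast genes, among them Acp5 and Gpnmb. Of 12 such genes, 11 were tested, and the shares over all genes are again those given for the wider programme. With culture Mitf rose by 1.42 (limma, adjusted p = 4.23e-05), and Dcstamp, which acts in osteoclast fusion, Tnfrsf11a, which encodes RANK, and Tfe3 fell by 2.63, 1.28 and 1.0. With the cytokines limma called 0 higher and 0 lower (1 and 4 at an unadjusted p under 0.05), and the -0.52 of Mitf had an adjusted p of 0.0709. At that unadjusted p 6.34% of all genes were higher and 8.84% lower. In adults against newborns Nfatc1 (1.1) and Mitf (0.55) were higher and Tfec (-3.79) and Ocstamp (-1.24) lower. Dcstamp gave 2.89 on adult array 1 and 6.29 on adult array 2, and 6.04, 6.01 and 5.67 in NB_FACS.

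**Figure D5:**
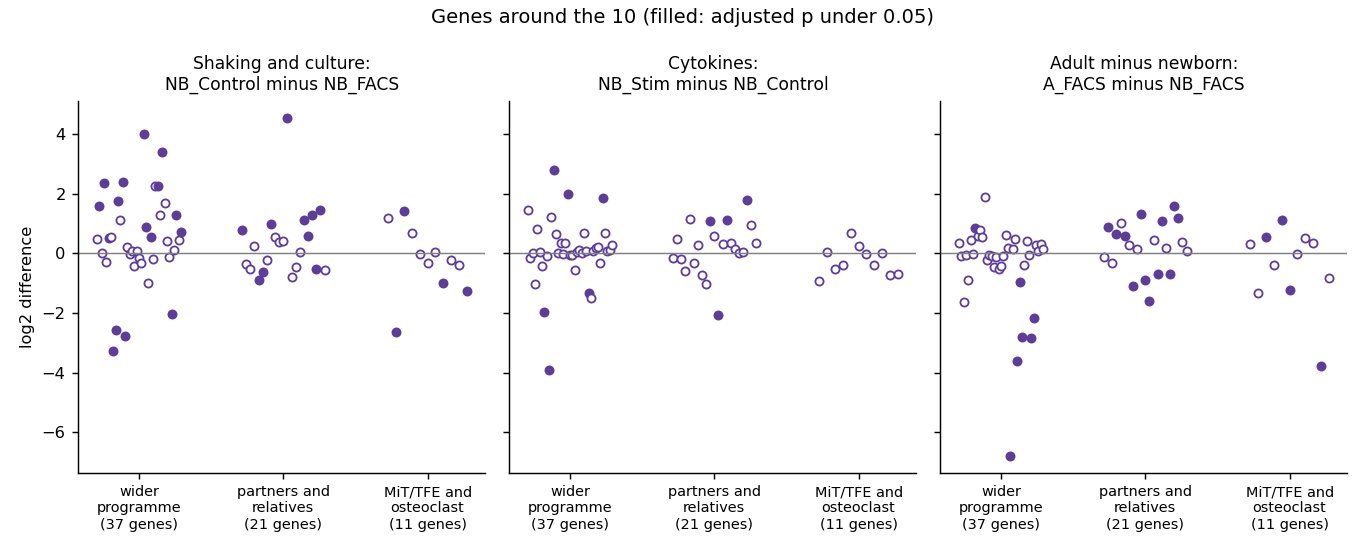
Log2 difference (vertical axis) of each tested gene of the wider programme, of the partners and relatives and of the MiT/TFE and osteoclast list in 3 comparisons, with filled points for adjusted p under 0.05. Calls lie on both sides of 0 in each list with culture, and the MiT/TFE and osteoclast list has none with the cytokines.

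The genes outside the 10 whose log2 levels most resembled each of them over the 11 arrays are given as a description. The arrays share slides, and the correlations are carried by the wide differences between groups. The 10 genes were left out as matches, although Gpnmb and Fabp5 were nearer to each other (0.9951) than to any gene named here. The level of Gpnmb was most like that of Igf1 (Pearson r = 0.994) and Cox7a2 (0.990), and that of Spp1 most like Snrpd2 (0.991) and Atp5o (0.988). Lgals1 was nearest to Psmb5 (0.998) and Phb (0.997), Fabp5 to Atp5k (0.995) and Commd5 (0.993), Cd63 to Tbca (0.997) and Uqcc2 (0.994), and Lgals3 to Abhd5 (0.986) and Gyg (0.986). The nearest genes to Cd9 were Ang5 and Ang6, both at 0.990. Acp5 was nearest to Cfb (0.979) and Slc25a13 (0.974), and Cst7 to Actr3b (0.956) and Syngr1 (0.944). Itgax had the least close matches, with Mtfp1 (0.908) and Wipf3 (0.886).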

How the data were processed

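RNA of 11 mouse microglia samples was measured on single-colour Agilent arrays. The authors deposited scanner files made with Agilent Feature Extraction 11.5.1.1, which give a background-subtracted signal intensity per spot, and a table of the same intensities, in which 0 of 692197 values compared differed beyond a relative tolerance of 1e-05. From the deposited intensity, log2 values were quantile normalised over all probes in limma 3.58.1 under R 4.3.3. Groups came from the sample titles. Through RefSeq accessions 60.4% of probes matched a symbol (GRCm38.p6 table, used for names; its promoter windows carry that build). Probes that were well above background throughout at least 1 group were kept, and the probes of a gene were averaged, which left 19555 genes. All 4 groups were fitted together (7 residual and 2.69 prior degrees of freedom). The 6 comparisons were tested with limma's two-sided moderated test and Benjamini-Hochberg adjustment over all genes at 0.05. The script was tested on simulated data. The study counts its replicates as independent biological ones; the labels do not say whether cultured replicates 1 and 2 were separate cultures, and an alternative averaged them.

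The 10 genes and the further lists were chosen with earlier results of these data known. Named genes of a further list are the 3 largest called rises and falls of a comparison. The 2 genes outside the 10 that were nearest to each of them are named as well. Genes of these lists without a matched probe (Clec7a, Cd68, Cd83, Gusb, Serpine2, Itgb3, Lgals8 and Aif1, among others) were not analysed here. Same-numbered arrays of the newborn groups deviated together from their group means (correlations 0.112 to 0.489 in 9 pairs), so the numbers were taken as pairs there; correlations with adult arrays were -0.07 to 0.168. Figures were drawn with matplotlib 3.10.9. Alternatives covered scaling, background, probe filters, blocks, slides, samples and tests.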

Additional observations from a re-analysis of the deposited data

How the results depend on the processing

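The number of the 10 genes called stayed within 1.5 times the reported count in most alternatives. The exceptions were in 2 comparisons. For NB_Stim against NB_Control, with 1 gene called, normexp background correction, the replicate block, the slide as a block and the fit within slide 1 each called 2, the methods' Tukey test and the averaging of cultured replicates 1 and 2 each called 0, and the newborn replicate block, added after the data were seen, called 3. The 0 under averaging came from limma and under Tukey's test from an analysis of variance per gene, with 666 genes called in all as reported and 117 and 183 in these. Over all genes, the settings that called 2 had 1009, 1196, 1475 and 1032 calls, in the order given. The newborn replicate block had 1170. For NB_Stim against NB_FACS, with 7 called, Tukey's test and averaging each called 3. Over all genes 6083 were called as reported, 3619 by Tukey's test and 4211 with averaging. Leaving out 1 array gave 6 to 8 calls for NB_Control against NB_FACS, 1 to 2 for NB_Stim against NB_Control, 3 to 8 for NB_Stim against NB_FACS, 6 to 8 for A_FACS against NB_FACS, 7 to 9 for A_FACS against NB_Control and 6 to 8 for A_FACS against NB_Stim. In NB_Stim against NB_FACS, 3 remained without NB_FACS replicate 1 or 2 and 4 without NB_Stim replicate 1. Calls over all genes in these fits were 4844, 4638 and 4776, in that order. The cause of these shifts was not tested.

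No called difference of any of the 10 genes changed sign, but 11 uncalled differences did, under 14 alternatives in all, and 5 uncalled ones had the other sign on slide 2 alone. The latter were Spp1 (-0.033), Itgax (-0.021) and Acp5 (-0.49) for NB_Stim against NB_Control, Cd9 (-0.045) for NB_Stim against NB_FACS and Cst7 (-0.93) for NB_Control against NB_FACS. Leaving out adult array 2 or 1 gave -0.52 or 1.04 for Itgax against NB_FACS, -0.0036 or 1.55 against NB_Control and -0.30 or 1.26 against NB_Stim, and for Cst7 -0.74 or 4.46, -1.54 or 3.66 and -4.63 or 0.57. For NB_Stim against NB_Control, Gpnmb was 0.15 within slide 1 and ran from -0.33 to 0.14 with 1 array left out, and Cd63 was -0.00086 with no filter on dim probes. For NB_Stim against NB_FACS, Itgax was 0.064 within slide 1, and Cd9 was -0.14 with 75th percentile scaling and ran from -0.085 to 0.12 with 1 array left out. Cd63 was 0.15 between A_FACS and NB_FACS with no filter. The replicate block changed the calls of Lgals3, Cd63, Cd9 and Spp1 as given above or here (Spp1, NB_Stim against NB_FACS, 2.12, limma adjusted p = 0.0486; Cd9, A_FACS against NB_Stim, 0.55, limma adjusted p = 0.0147) and no other call of the 10. The replicate block rests on no known pairing, between newborn groups as well as with A_FACS. Within slide 2 each newborn group has 1 array, so no count was given there.

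With 2 adult arrays and 3 of each newborn group, an adult mean rests on arrays that differed by more than 1 on the log2 scale for 7 of the 10 genes. Signal limits the low end, since Gpnmb was not well above background on adult array 1 and neither was 1 of the 3 Fabp5 probes.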
